A study of Mus musculus with 8 samples.

Results

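The genes described here are 10 genes of the p53 pathway, which were followed to see whether removal of CTCF raised a p53 response in mouse embryonic stem cells. They were chosen by name: Trp53, which encodes p53, its negative regulator Mdm2, and the target genes Cdkn1a, Ccng1, Bax, Bbc3, Trp53inp1, Phlda3, Zmat3 and Sesn2. The choice was made with earlier results of these data known. All 10 were found among the 16940 genes of the table, and all 10 passed the filter on low values. Transcription was measured by TT-seq, in which RNA made during a short pulse of the uridine analog 4-thiouridine is captured and sequenced, so a level reads RNA made during or just before the pulse and not the stored message or the protein.

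The cells were of the E14 line and carried CTCF, the zinc-finger factor that holds the base of many chromatin loops, as a fusion with the auxin-inducible degron (AID), which lets the auxin IAA trigger destruction of the tagged protein. There were 4 groups of 2 libraries. A control overexpression line was grown without IAA or for 12 h with IAA. A line overexpressing wild-type CTCF and a line overexpressing a mutated CTCF were each measured after 12 h of IAA. All groups shared the degron background, gelatin-coated dishes and serum-free medium with LIF, 1 µM of the MEK inhibitor PD0325901 and 3 µM of the GSK3 inhibitor CHIR99021, and all were labelled for 15 min with 400 µM 4-thiouridine. The labels do not name the mutation, the promoter of the overexpressed CTCF or whether a line is a single clone. Neither CTCF-overexpressing line was measured without IAA, so a difference between lines and an effect of the CTCF form cannot be told apart. No line without the degron was treated with IAA, so in the control line CTCF loss and an effect of IAA itself cannot be told apart. Nothing in the labels says that the replicates came from separate cultures, so the tests measure only the spread between these libraries, which may be technical. The fit shares that spread across genes of similar level, so a p-value does not rest on the replicates of its gene alone. Loss of the CTCF protein was not checked here.

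p53 is a transcription factor that is kept low by Mdm2, a ubiquitin ligase that marks it for degradation. DNA damage and other stresses free it from Mdm2, and it then switches on genes that stop the cell cycle, promote cell death, repair DNA, alter metabolism and, through Mdm2 itself, shut the response down again. p53 activity is set mostly through the stability and modification of the protein, so transcription of Trp53 is not a measure of it, and mouse embryonic stem cells are known to hold abundant p53.

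p53 binds DNA as a tetramer at a pair of adjacent half-sites of 10 bases, and the sequences of the sites are shown because they are the letters that p53 is known to read. The p53 response-element consensus was searched on GRCm38.p6 within 3000 bases either side of each RefSeq start, with a spacer of 0 or 1 base, the C and the G of each core required and at most 2 mismatches at the other positions. The consensus reads alike on both strands, so both strands were covered. RefSeq entries matched 8 of the 10 genes, all except Trp53inp1 and Zmat3, and 3 of the 8 held a match, compared with 15.1% of all 27025 genes scanned. Within the 250 bases upstream of the start a match was found at 0.55% of 32851 starts. Capitals mark the 4-base core of each half-site, and each site is written 5′ to 3′ on the strand of its gene.
Cdkn1a, chr17:29090928-29090947, plus strand, 1 mismatch, 51 bases upstream of one RefSeq start and 2841 upstream of the other: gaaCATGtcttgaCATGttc
Ccng1, chr11:40755462-40755481, minus strand, 1 mismatch, 195 bases upstream of the start: agaCCTGcccgggCAAGcct
Ccng1, chr11:40754936-40754955, minus strand, 1 mismatch, 331 bases past the start: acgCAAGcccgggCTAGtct
Bax, chr7:45467079-45467099, minus strand, 2 mismatches and a spacer of 1 base, within 250 bases upstream of the start: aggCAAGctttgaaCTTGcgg
Bax, chr7:45466574-45466593, minus strand, 2 mismatches, 305 bases past the start: gggCAGGcccgggCTTGtcg
These are matches to letters, not measured binding, and the absence of a match says only that the pattern is not in the window.

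Of the 3 genes with a match upstream, Cdkn1a and Ccng1 fell with IAA and Bax did not pass the test (values below). Of the scanned genes with no match in the window, Phlda3 fell, and Trp53, Mdm2, Bbc3 and Sesn2 did not pass. For the 2 genes with the fewest mismatches upstream, Cdkn1a and Ccng1, the upstream sequence is printed for context, ending before the first annotated start of the gene.
Cdkn1a, chr17:29090729-29090975, plus strand: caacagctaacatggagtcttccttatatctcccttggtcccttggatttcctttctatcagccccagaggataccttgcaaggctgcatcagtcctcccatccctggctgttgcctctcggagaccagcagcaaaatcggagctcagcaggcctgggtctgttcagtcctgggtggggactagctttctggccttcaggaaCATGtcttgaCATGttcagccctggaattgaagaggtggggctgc
Ccng1, chr11:40755312-40755536, minus strand: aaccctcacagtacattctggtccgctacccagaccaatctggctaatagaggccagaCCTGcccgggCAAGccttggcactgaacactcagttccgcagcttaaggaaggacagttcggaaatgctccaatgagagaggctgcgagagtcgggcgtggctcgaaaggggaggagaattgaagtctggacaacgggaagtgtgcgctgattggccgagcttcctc

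Depth ran from 15671114 to 21561141 reads per library, and the control libraries with IAA were the shallowest. All 7 embryonic stem cell markers of a fixed list were present, with a summed level of 47624 to 58182 normalized reads per library. Of 12 markers of other cell types, 5 had rows (Eomes, Gata4, Gata6, Pax6 and T), and their summed level was 226 to 272 in the untreated control, 256 to 304 in the control with IAA, 263 to 281 with wild-type CTCF and 230 to 242 with mutated CTCF. Sox17, Foxa2, Cdx2, Sox1, Col1a1, Col1a2 and Thy1 had no value. The part of other cell types in the results was not tested. In bulk samples, fewer cells of a type and less RNA per cell cannot be told apart.

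Treatment with IAA, which is meant to deplete CTCF, was not accompanied by higher transcription of the p53 genes. In the control line 12 h of IAA left 0 of the 10 genes higher and 5 lower, where 18.4% of the 15818 tested genes were called lower and 19.4% higher: Cdkn1a, Phlda3, Trp53inp1, Ccng1 and Zmat3. The smallest of these changes was in Zmat3, whose mean fell by 17.7%, and the largest in Cdkn1a, whose mean fell by 38.8%. Trp53, Mdm2, Bax, Bbc3 and Sesn2 did not pass the test. The line with wild-type CTCF had 9 of the 10 above the control line with IAA, and the line with mutated CTCF had 5 above it, against 21.5% and 22.0% of all tested genes. Between the CTCF lines, 8 genes were lower with the mutated form, against 18.4% of all tested genes. The levels in every library are given first, by the role of the gene, as the authors' normalized reads (reads divided by a factor per library).

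**Figure D1:**
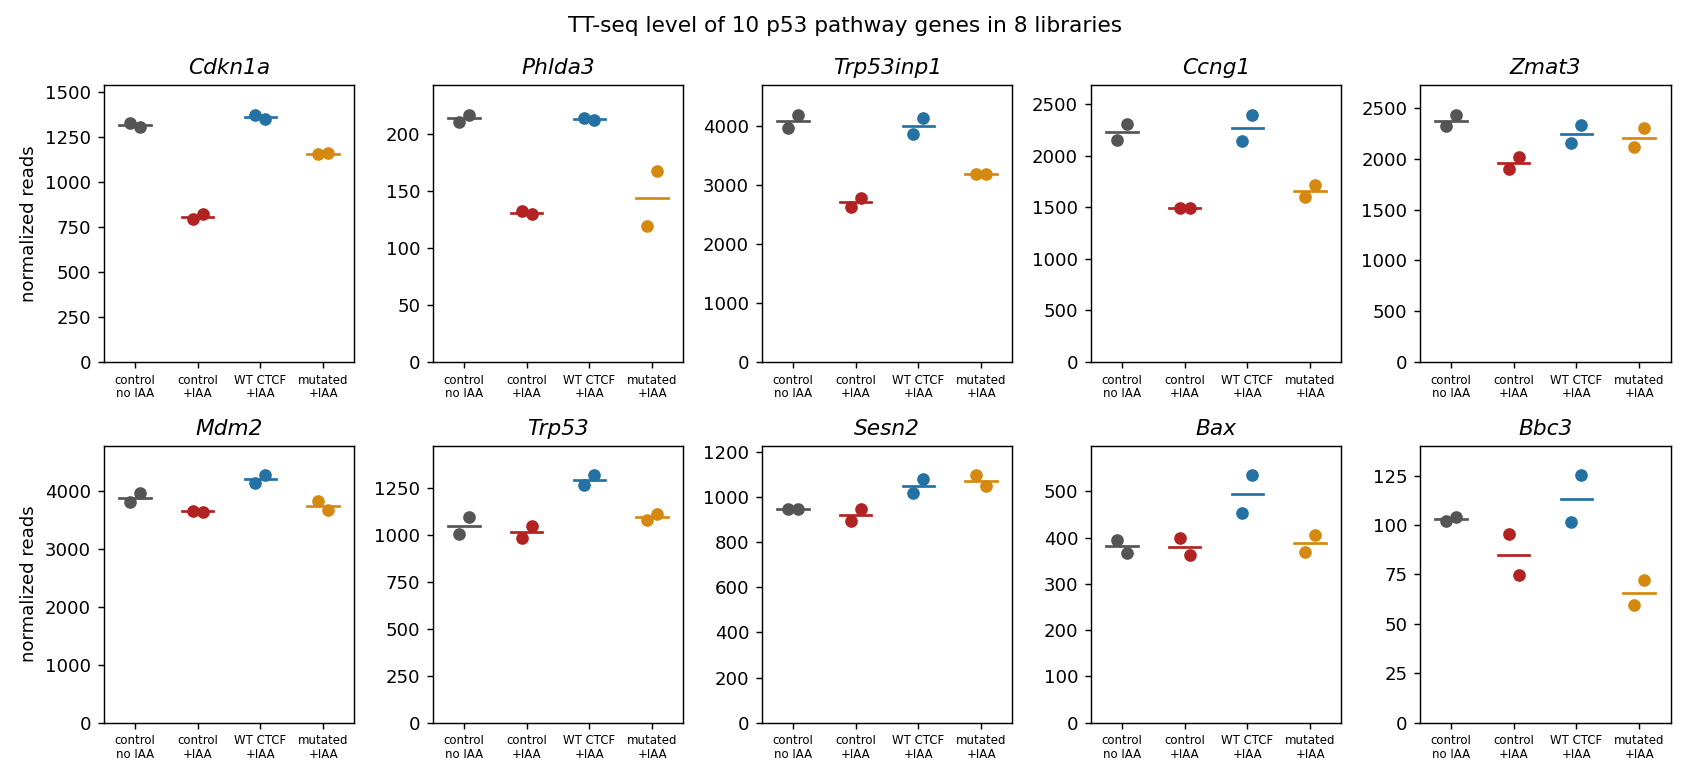
Normalized TT-seq reads (linear axis from 0) of the 10 p53 pathway genes in each of the 8 libraries. Points are libraries, horizontal lines are the means of 2 libraries, and colours mark the control line without IAA, the control line with IAA, and the lines with wild-type (WT) or mutated CTCF with IAA. Cdkn1a lies at 793 and 820.5 in the control with IAA, below its 6 other libraries, while Mdm2 spans only 3639 to 4265.

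The factor and its negative regulator moved little with IAA. Trp53 (chr11:69580359-69591873, plus strand) had 1003 and 1094 normalized reads in the untreated control and 982 and 1045 with IAA, then 1263 and 1317 with wild-type CTCF and 1081 and 1112 with mutated CTCF. The control groups overlapped, and the wild-type CTCF libraries were the 2 highest of the 8. The change with IAA was -0.05 on the log2 scale (SE 0.057, adjusted p = 0.54). Mdm2 (chr10:117688875-117710758, minus strand) had 3807 and 3955 in the untreated control and 3649 and 3639 with IAA, then 4139 and 4265 with wild-type CTCF and 3818 and 3661 with mutated CTCF. Both libraries with IAA were below both without it, with a difference of -0.09 on the log2 scale (SE 0.038, adjusted p = 0.059). That value is at the edge of the threshold: it passed without the first untreated library (-0.12, adjusted p = 0.045), and the adjusted p under the other alternatives is given in the closing section.

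The cell cycle genes fell with IAA. Cdkn1a (chr17:29090976-29100727, plus strand) encodes p21, the inhibitor of cyclin-dependent kinases through which p53 arrests the cell cycle. It had 1331 and 1305 normalized reads in the untreated control and 793 and 820.5 with IAA, then 1375 and 1350.1 with wild-type CTCF and 1157 and 1161 with mutated CTCF. No groups overlapped, and the order was control with IAA, mutated CTCF, untreated control and wild-type CTCF, although the last 2 did not pass the test of their difference (log2 0.05, adjusted p = 0.49). With IAA its mean fell by 38.8%, or by 0.71 on the log2 scale (SE 0.053, adjusted p = 3.5e-14). Ccng1 (chr11:40748552-40755311, minus strand) encodes cyclin G1, which works with a phosphatase that acts on Mdm2. It had 2151 and 2303 in the untreated control and 1490.1 and 1494 with IAA, then 2147 and 2399 with wild-type CTCF and 1602 and 1717 with mutated CTCF. The 4 libraries of the control with IAA and the mutated line were the lowest, and the change with IAA was -0.58 (log2, SE 0.051, adjusted p = 3.0e-12).

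The cell death genes did not pass the test with IAA. Bax (chr7:45461697-45466898, minus strand) encodes a protein that opens pores in the mitochondrial outer membrane. It had 395 and 367 normalized reads in the untreated control and 399 and 362 with IAA, then 453 and 535 with wild-type CTCF and 369 and 406 with mutated CTCF. The control groups overlapped (log2 fold change 0.00, SE 0.087, adjusted p = 0.98), and only the wild-type CTCF libraries stood above the rest. The transcript Gm45808 is annotated over Bax on the same strand, so reads between them are uncertain. Bbc3 (chr7:16308393-16318205, plus strand) encodes PUMA, which triggers the same mitochondrial pathway. It had 102 and 104 normalized reads in the untreated control and 95.3 and 74.8 with IAA, then 101 and 125 with wild-type CTCF and 59.6 and 72.2 with mutated CTCF. Both libraries with IAA were lower, but the replicates differed and the log2 change of -0.29 (SE 0.16) had an adjusted p of 0.18. Bbc3 had 57 to 122 reads per library, the fewest of the 10 genes.

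Among the remaining targets, Trp53inp1, Phlda3 and Zmat3 fell and Sesn2 did not pass. Trp53inp1 (chr4:11156431-11174379, plus strand) encodes a stress protein that promotes p53 activity and autophagy. It had 3969 and 4201 normalized reads in the untreated control and 2636 and 2789 with IAA, then 3864 and 4139 with wild-type CTCF and 3187 and 3198 with mutated CTCF. The untreated and wild-type CTCF groups overlapped, and the control with IAA was lowest (log2 change with IAA -0.59, SE 0.042, adjusted p = 4.7e-15). Phlda3 (chr1:135766119-135769136, plus strand) encodes a protein that competes with the kinase Akt for membrane lipids. It had 211 and 217 in the untreated control and 132 and 129.8 with IAA, then 214 and 213 with wild-type CTCF and 119 and 168 with mutated CTCF. On the log2 scale it changed by -0.70 with IAA (SE 0.13, adjusted p = 2.2e-05), and the mutated CTCF libraries lay on both sides of the control with IAA.

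Zmat3 (chr3:32334792-32366014, minus strand) encodes a zinc-finger protein that binds RNA. It had 2319 and 2435 normalized reads in the untreated control and 1898 and 2016 with IAA, then 2153 and 2333 with wild-type CTCF and 2112 and 2305 with mutated CTCF. The control with IAA was below all other libraries, and its difference from the untreated control was -0.28 (log2, SE 0.049, adjusted p = 1.1e-05). Sesn2 (chr4:132492032-132510501, minus strand) encodes a stress-induced inhibitor of mTORC1 that is also a target of the stress factor ATF4. It had 949 and 944.80 in the untreated control and 893 and 944.79 with IAA, then 1018 and 1081 with wild-type CTCF and 1096 and 1048 with mutated CTCF. All 4 libraries of the CTCF-overexpressing lines were above the 4 control libraries, and the IAA effect was -0.04 (SE 0.057, adjusted p = 0.59).

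In the IAA comparison as a whole, 5 of the 10 genes passed the test as lower and 0 as higher. The groups did not overlap, with IAA lower, for 8 of the 10 genes, compared with 33.9% of all tested genes. The median log2 fold change of the 10 genes was -0.28, and that of all tested genes was 0.00. The 5 calls were kept under all 18 alternatives, and in 6 of the 18 Mdm2 was called as well, also as lower.

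**Figure D2:**
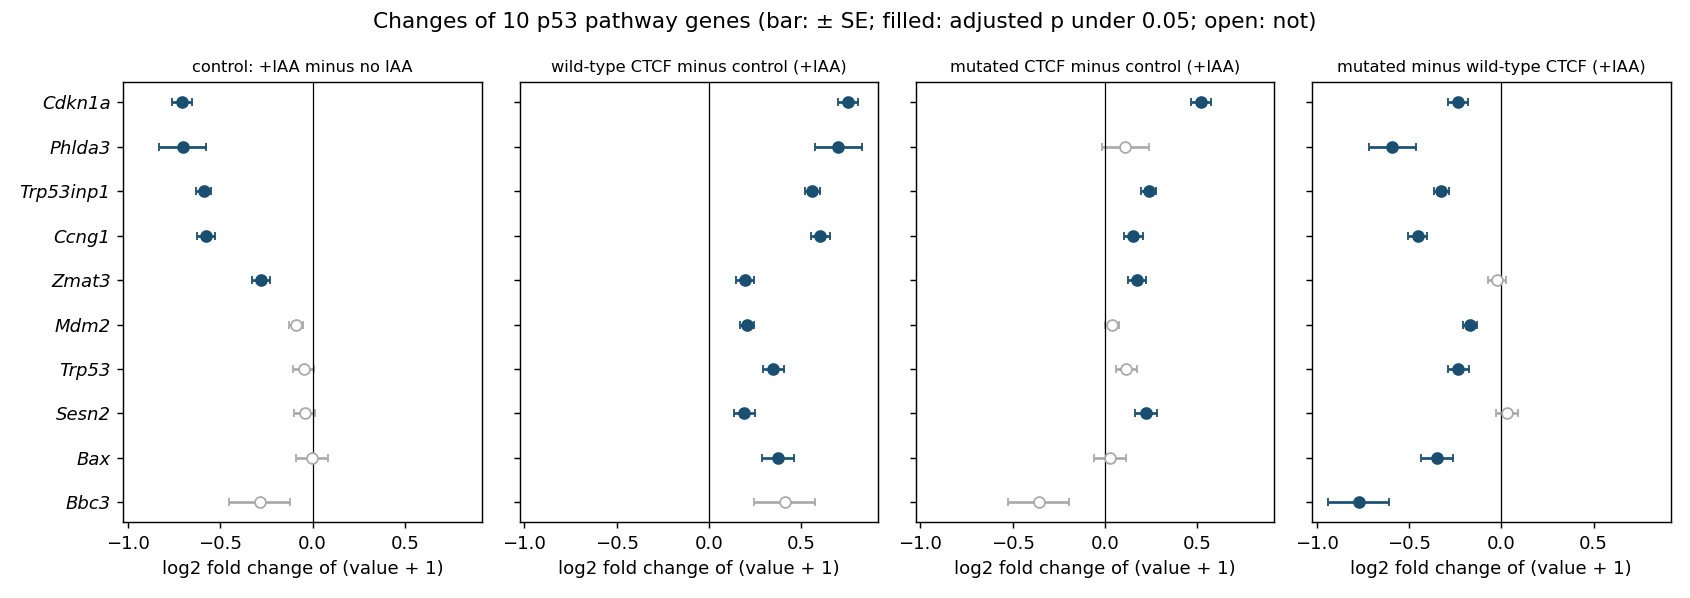
Log2 fold change of (normalized reads + 1) of the 10 genes in 4 comparisons, with bars of ± 1 SE from the limma fit. Filled points passed an adjusted p of 0.05 and open points did not. With IAA the 5 filled points lie between -0.71 and -0.28, and with mutated minus wild-type CTCF the 8 filled points lie between -0.77 and -0.17.

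With wild-type CTCF, 9 of the 10 genes were higher than in the control line with IAA and 0 were lower, where 21.5% of all tested genes were called higher. Cdkn1a (log2 0.76, SE 0.053, adjusted p = 1.5e-14) and Phlda3 (0.70, SE 0.13, adjusted p = 4.1e-05) differed most, followed by Ccng1 (0.60), Trp53inp1 (0.56), Bax (0.37), Trp53 (0.35), Mdm2 (0.21), Zmat3 (0.20) and Sesn2 (0.19). Bbc3 did not pass (0.41, SE 0.16, adjusted p = 0.052) and was at the edge of the threshold: it passed with a minimum mean of 50 (0.042), with a pseudocount of 10, without the first control library with IAA (0.59, adjusted p = 0.030), without the first wild-type CTCF library (0.56, adjusted p = 0.023) and without either mutated CTCF library (0.040 and 0.042), while the highest adjusted p over the alternatives was 0.40. For all 10 genes both wild-type CTCF libraries were above both control libraries with IAA, compared with 40.6% of all tested genes, and the median was 0.39 against 0.06 over all tested genes. This comparison and the IAA effect share the control libraries with IAA, so they are not independent measurements. Without the second wild-type CTCF library Bax (adjusted p = 0.059), Zmat3 (0.062) and Sesn2 (0.12) no longer passed, and without the first control library with IAA Zmat3 (0.071) and Sesn2 (0.12) did not. With no mean-variance trend 6 genes were called, since Bax (0.071), Zmat3 (0.12) and Sesn2 (0.078) were lost, and edgeR did not call Sesn2 (0.054).

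With mutated CTCF the differences from the control line with IAA were smaller in number: 5 genes were higher and 0 lower, where 22.0% of all tested genes were called higher and 12.4% lower. Cdkn1a (log2 0.52, SE 0.053, adjusted p = 2.9e-10) and Trp53inp1 (0.24, SE 0.042, adjusted p = 2.0e-05) were the clearest, with Sesn2 (0.22), Zmat3 (0.17) and Ccng1 (0.15). Trp53 (0.11, adjusted p = 0.12), Phlda3 (0.11, adjusted p = 0.54), Mdm2 (0.04, adjusted p = 0.49), Bax (0.03, adjusted p = 0.84) and Bbc3 (-0.36, adjusted p = 0.088) did not pass. The median was 0.13 against 0.06 over all tested genes. The count of 5 fell to 2 without the first control library with IAA, when Ccng1, Zmat3 and Sesn2 were lost, and to 3 without the second mutated CTCF library, when Ccng1 and Zmat3 (0.11, adjusted p = 0.17) were lost. Without the second control library with IAA Ccng1 was lost (adjusted p = 0.076) and Bbc3 was called lower (-0.53, adjusted p = 0.037). With median-of-ratios rescaling 4 genes were called higher and 1, Bbc3, lower. With no mean-variance trend 3 genes were called, since Ccng1 (adjusted p = 0.20) and Zmat3 (0.15) were lost, and edgeR did not call Ccng1 (0.077). The control libraries with IAA are again those of the IAA effect.

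The lines with the 2 forms of CTCF were also compared directly, in libraries that the IAA effect does not use. With mutated CTCF 8 of the 10 genes were lower and 0 higher, where 18.4% of all tested genes were called lower and 16.3% higher. Bbc3 differed most (log2 -0.77, SE 0.16, adjusted p = 0.00028), then Phlda3 (-0.59, SE 0.13), Ccng1 (-0.45, SE 0.051), Bax (-0.35, SE 0.087), Trp53inp1 (-0.33, SE 0.042), Cdkn1a (-0.23, SE 0.053), Trp53 (-0.23, SE 0.057) and Mdm2 (-0.17, SE 0.038). Zmat3 (-0.02, adjusted p = 0.75) and Sesn2 (0.03, adjusted p = 0.71) did not pass, and their groups overlapped. The median was -0.28 against -0.01 over all tested genes. Bax lost its call without the second wild-type CTCF library (-0.23, adjusted p = 0.083), and Phlda3 without the first mutated CTCF library (-0.34, adjusted p = 0.065). With no mean-variance trend 5 genes were called, since Trp53 (adjusted p = 0.057), Mdm2 (0.064) and Bax (0.073) were lost.

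Of the 5 genes that were lower with IAA, 4 (80%) were also lower with mutated than with wild-type CTCF, and these were 50% of the 8: Ccng1, Cdkn1a, Phlda3 and Trp53inp1. Over all tested genes, 487 were lower in both comparisons, which was 16.8% of the 2905 lower with IAA and 16.7% of the 2917 lower with mutated CTCF. Since 8 of the 10 genes were lower in the second comparison, 4 of 5 is also the rate of the 10 genes there. Zmat3 was lower only in the first list, and Bax, Bbc3, Mdm2 and Trp53 only in the second. The test of these differences between the effects was not run.

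Each line was also set against the untreated control, from which it differs by line, IAA and CTCF form together. With wild-type CTCF, 4 genes were higher and 0 lower, where 27.6% of all tested genes were called higher and 15.6% lower: Bax (log2 0.37, SE 0.087, adjusted p = 0.00063), Trp53 (0.30, SE 0.057, adjusted p = 3.8e-05), Sesn2 (0.15, adjusted p = 0.035) and Mdm2 (0.11, adjusted p = 0.014). Cdkn1a (0.05, SE 0.053), Ccng1 (0.03, SE 0.051), Phlda3 (0.00, SE 0.13), Trp53inp1 (-0.03, SE 0.042), Zmat3 (-0.08, SE 0.049) and Bbc3 (0.13, SE 0.16) did not pass. The count depended on the scale: Bax and Trp53 were higher and Zmat3 lower after median-of-ratios rescaling, and with rescaling to the same total 2 genes were higher and 2 lower. Without the first untreated library 2 genes were called, since Mdm2 (0.09, adjusted p = 0.13) and Sesn2 (0.15, adjusted p = 0.12) were lost. Both were also lost without the second wild-type CTCF library (adjusted p = 0.13 and 0.25), when Zmat3 was called lower (-0.14, adjusted p = 0.037), and Sesn2 was lost without the second untreated library (adjusted p = 0.13). Neither was called with no mean-variance trend (0.13 and 0.10) or by edgeR (0.18 and 0.16), which called Trp53inp1 (-0.09, adjusted p = 0.015) and Zmat3 (-0.15, adjusted p = 0.0014) lower.

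With mutated CTCF, 5 genes were below the untreated control, where 13.7% of all tested genes were called lower: Bbc3 (log2 -0.65, SE 0.16, adjusted p = 0.0017), Phlda3 (-0.59, SE 0.13, adjusted p = 0.00024), Ccng1 (-0.42, SE 0.051, adjusted p = 8.7e-09), Trp53inp1 (-0.36, SE 0.042, adjusted p = 5.1e-09) and Cdkn1a (-0.19, SE 0.053, adjusted p = 0.0051). Sesn2 was higher (0.18, adjusted p = 0.012), where 24.0% of all tested genes were called higher. Cdkn1a lost its call without the first untreated library (-0.17, adjusted p = 0.057) and Phlda3 without the first mutated CTCF library (-0.35, adjusted p = 0.053). Sesn2 lost its call without either untreated library (adjusted p = 0.066 and 0.071) or without the first mutated CTCF library (0.11). After rescaling to the same total 7 genes were lower and 0 higher. Sesn2 was also lost with no mean-variance trend (0.072), and edgeR called Mdm2 (-0.11, adjusted p = 0.0071) and Zmat3 (-0.16, adjusted p = 0.00079) lower as well.

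Beyond the 10 genes, a list of 64 p53 regulators and targets was followed, of which 58 were tested. This list too was chosen with earlier results of these data known, so the shares beside its counts are not an independent test. With IAA 24 were lower and 4 higher, with a median log2 fold change of -0.24, where 18.4% of all tested genes were called lower and 19.4% higher, with a median of 0.00. The counts for the sublists in this comparison are to be read against the same shares. Among 10 cell death targets 8 were lower and 0 higher, among them Siva1 (-0.60, SE 0.13), Tnfrsf10b (-0.39, SE 0.078), which encodes a death receptor, and Apaf1 (-0.38, SE 0.046), the core of the apoptosome. Tnfrsf10b had 513 and 487 normalized reads in the untreated control and 373 and 391.6 with IAA, and Apaf1 2789 and 2979 without and 2220.3 and 2216 with IAA. In both genes the groups did not overlap.

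Among the genes selected by size, which had a mean of at least 50, the antiproliferative gene Btg2 showed the widest fall with IAA. Btg2 had 346 and 378 normalized reads in the untreated control and 195.3 and 194.7 with IAA (log2 -0.89, SE 0.093, adjusted p = 2.7e-10). The cell death target Pmaip1, below that mean, fell further (-1.33, SE 0.31, adjusted p = 0.00065). Of 6 growth arrest targets 3 were lower (18.4% of all tested genes) and 0 higher, with Gtse1 (-0.40, SE 0.053), which restrains p53, and the kinase gene Plk2 beside Btg2. Of 5 DNA repair targets 3 were lower (again beside 18.4%) and 0 higher, including Polk (-0.59, SE 0.047), a polymerase that copies past lesions, and Rrm2b (-0.54, SE 0.072), a ribonucleotide reductase subunit. The antisense gene Gm49085 is annotated over Rrm2b. The libraries are strand-specific, but the strand setting of the counting is not given in the sources used here.

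Of 16 other targets 6 were lower and 0 higher with IAA, beside 18.4% and 19.4% of all tested genes: Zfp365 (-0.80, SE 0.11), the long noncoding RNA Pvt1 (-0.65, SE 0.035), Eda2r (-0.58, SE 0.042), Ephx1 (-0.44, SE 0.087), Rps27l and Slc19a2. Pvt1 had 6361 and 6386 normalized reads in the untreated control, 3993 and 4139.9 with IAA, 6203 and 6304 with wild-type CTCF and 4589 and 4624 with mutated CTCF. Of 8 metabolic targets 0 were lower and 2 higher, the latter near the 19.4% of all tested genes, and the list median was -0.03. The 2 were Sesn1 (0.36, SE 0.043, adjusted p = 7.9e-09), a relative of Sesn2, and Gpx1, a glutathione peroxidase. Of 13 regulators of p53, 4 were lower (Mdm4, Atr, Ppm1d and Rchy1) and 2 higher (Trp53bp1 and Usp7). Mdm4, which binds and restrains p53, had 8655 and 8977 without and 7261 and 7089 with IAA (-0.30, SE 0.032). Genes on the opposite strand are annotated over Mdm4 (Gm29257), Atr (Gm16794), Rchy1 (Thap6) and Trp53bp1 (Tubgcp4). The limit given for Rrm2b, an unknown strand setting of the counting, holds for these genes too.

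**Figure D3:**
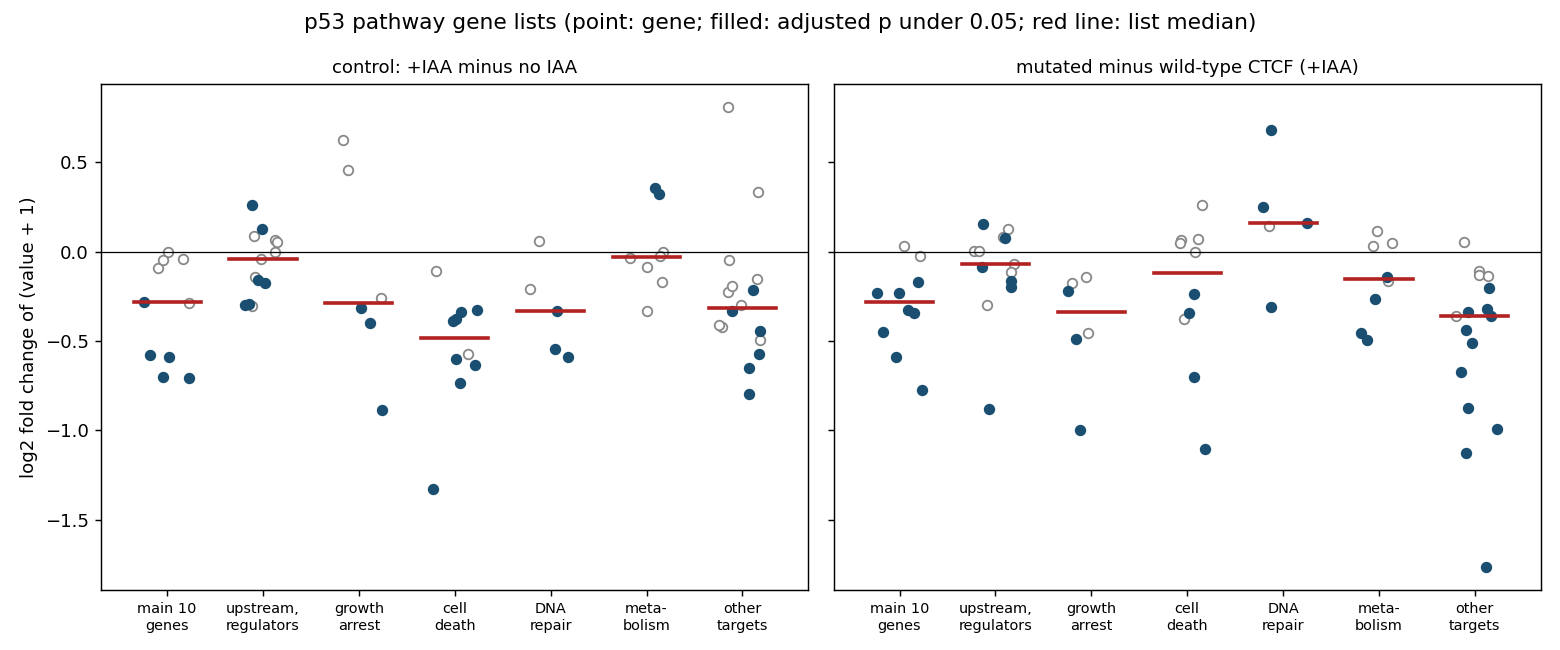
Log2 fold change of (normalized reads + 1) of each tested gene of the p53 lists, for IAA in the control line and for mutated minus wild-type CTCF. The first column holds the 10 genes described first, filled points passed an adjusted p of 0.05, and red lines are list medians. With IAA the cell death list has its median at -0.48 and holds 8 filled points, all below 0.

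Against the control line with IAA, 26 of the 58 wider genes were higher and 1 lower with wild-type CTCF, and 18 were higher and 7 lower with mutated CTCF. Of all tested genes 21.5% were higher and 1584 of the 15818 lower with wild-type CTCF, and 22.0% higher and 12.4% lower with mutated CTCF, so the 7 lower genes are near the background. The medians of the 58 were 0.17 and 0.07, against 0.06 and 0.06 over all tested genes. The counts became 24 and 7, and 11 and 12, when the libraries were rescaled by median of ratios. With no mean-variance trend the 25 calls with mutated CTCF became 9, of which 6 were higher and 3 lower. Without the first control library with IAA 14 genes were called with mutated CTCF, 17 without the second control library with IAA and 17 without the first mutated CTCF library. Genes named for their fall with IAA are set here against the same control libraries in which they were low, so a higher level in the CTCF lines is partly built into the choice, and the values of Btg2 and Eda2r are a description. Btg2 had 348 and 370.2 normalized reads with wild-type CTCF (log2 0.88, SE 0.093) and 258 and 252 with mutated CTCF (0.39, SE 0.093). Eda2r had 2965 and 2976 with wild-type CTCF (0.44, SE 0.042) and 2087.5 and 2087.9 with mutated CTCF (-0.07, SE 0.042), against 2157 and 2213 in the control line with IAA.

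Mutated CTCF went with lower levels than wild-type CTCF in 27 of the 58 wider genes and higher levels in 5, where 18.4% of all tested genes were lower and 16.3% higher. Among the genes selected by size was the kinase gene Plk2 (log2 -0.998, SE 0.093, adjusted p = 2.2e-11). Plk2 had 414 and 412 normalized reads with wild-type CTCF and 213 and 199.7 with mutated CTCF, with no overlap. Lif (-0.67, SE 0.20), which encodes the cytokine that is also supplied in the medium, Eda2r (-0.51, SE 0.042), Ddit4 (-0.49, SE 0.12), Btg2 (-0.49, SE 0.093) and Gpx1 (-0.46, SE 0.086) were lower as well. Rrm2b went the other way: it had 426 and 420.4 with wild-type CTCF and 702 and 658 with mutated CTCF (0.68, SE 0.072, adjusted p = 5.1e-10), the latter near the 662 and 672 of the untreated control. The DNA repair list had 3 higher (Ercc5, Rrm2b and Xpc) and 1 lower (Polk). Without the first mutated CTCF library 21 genes were called, and with no mean-variance trend 17, of which 1 was higher and 16 lower.

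Of the 24 wider genes lower with IAA, 13 (54.2%) were also lower with mutated than with wild-type CTCF, which was 48.1% of those 27, beside the 16.8% and 16.7% of all tested genes given above. The list's own rates were 27 of 58 lower with mutated than with wild-type CTCF and 24 of 58 lower with IAA. The shared genes are near those rates. Among the named genes these 13 included Btg2, Eda2r, Ephx1, Gtse1, Plk2, Polk, Pvt1, Tnfrsf10b and Zfp365. Apaf1, Siva1 and Rrm2b were lower with IAA and were not called lower with mutated than with wild-type CTCF (log2 0.06, 0.05 and 0.68). The difference between the effects was not tested.

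Against the untreated control, 16 of the 58 wider genes were higher and 12 lower with wild-type CTCF, and 7 were higher and 23 lower with mutated CTCF. Of all tested genes 27.6% were higher and 15.6% lower with wild-type CTCF, close to the counts of the wider genes, and 24.0% were higher and 13.7% lower with mutated CTCF. The sublists with wild-type CTCF were split. Cell death targets were 0 higher and 4 lower of 10, and DNA repair targets 0 and 3 of 5. Metabolic targets were 4 higher and 0 lower of 8, and growth arrest targets 2 and 0 of 6. Other targets were 6 higher and 2 lower of 16, and regulators 4 and 3 of 13. The first split moved to 10 higher and 16 lower after median-of-ratios rescaling, and the second to 4 higher and 32 lower after rescaling to the same total. The first count of calls fell from 28 to 15 without the first untreated library and to 17 without the second. Rrm2b was among the lower genes with wild-type CTCF (log2 -0.66, SE 0.072) and did not differ beyond its error with mutated CTCF (0.03, SE 0.072, adjusted p = 0.80).

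Cell cycle genes that p53 and p21 repress through the DREAM complex were also read, and their relation to Cdkn1a was not tested. Cdkn1a, which encodes p21, was lower with IAA and higher with either CTCF form than in the control line with IAA. Its level was lower with mutated than with wild-type CTCF. With IAA, Bub1, Ccnb2, Cdk1 and Cenpf of 12 were lower and Birc5 higher, with a median of -0.06, beside 18.4% lower and 19.4% higher over all tested genes. With wild-type CTCF 3 were higher and 2 lower than in the control line with IAA, and with mutated CTCF 7 were higher and 0 lower, where 21.5% and 22.0% of all tested genes were higher and 1584 of the 15818 (wild-type CTCF) and 12.4% (mutated CTCF) lower. With mutated CTCF 5 were higher and 0 lower than with wild-type CTCF (16.3% of all tested genes higher and 18.4% lower). Against the untreated control 3 were higher and 3 lower with wild-type CTCF, and 5 were higher and 1 lower with mutated CTCF (27.6% and 24.0% higher and 15.6% and 13.7% lower over all tested genes). Targets of ATF4 were read because Sesn2 is shared with that factor. Sesn2 is itself 1 of the 8 genes of this list, so its calls are counted again here. Of the 8, Asns, Atf4 and Trib3 were higher and Vldlr lower with IAA, and 7 were higher and 0 lower with mutated CTCF than in the untreated control, where 24.0% of all tested genes were higher. The 7 were Sesn2, Asns, Atf4, Chac1, Ddit3, Nupr1 and Trib3. With wild-type CTCF 3 were higher and 2 (Chac1 and Vldlr) lower than in the untreated control, where 27.6% of all tested genes were higher and 15.6% lower. Their summed level was 8321 and 8491 normalized reads in the untreated control, 9600 and 9579 in the control with IAA, 9908 and 10729 with wild-type CTCF and 10921 and 11015 with mutated CTCF. Most of this sum is Asns, which had 5567 and 5734 in the untreated control and 7687 and 7746 with mutated CTCF, so the sum does not describe the list as a whole.

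Stem cell markers moved in the same libraries. Of the 7, with IAA Esrrb and Zfp42 were lower and Tfcp2l1 higher (18.4% and 19.4% of all tested genes). Against the control line with IAA, Esrrb, Nanog, Pou5f1 and Zfp42 were higher and 0 lower with wild-type CTCF (median log2 0.22), and these 4 and Klf4 were higher and 0 lower with mutated CTCF (median 0.17), where 21.5% and 22.0% of all tested genes were higher. Against the untreated control 5 were higher and 0 lower with wild-type CTCF and 5 higher and 1 lower with mutated CTCF (27.6% and 24.0% higher over all tested genes). With mutated CTCF Nanog, Pou5f1 and Zfp42 were lower and Esrrb and Klf4 higher than with wild-type CTCF (18.4% and 16.3%). Of the markers of other cell types, Eomes, Gata4 and Gata6 were tested. Gata4 was higher and Gata6 lower with IAA, and Eomes was higher and Gata4 lower in the wild-type CTCF line than in that control after IAA. With mutated CTCF 0 of the 3 were called against the same control, and Eomes was lower with mutated than with wild-type CTCF. Against the untreated control Gata6 was lower in both lines, with Eomes higher with wild-type and Gata4 higher with mutated CTCF. The part of these differences, or of the depth of the control libraries with IAA, in the p53 results was not tested.

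The genes whose log2 levels followed Cdkn1a most closely over the 8 libraries, of 11859 searched, were Npr3 (Pearson's r = 0.992), Ddx46 (0.991) and Dnajc11 (0.991). For Mdm2 they were Hif1an (0.974), Adrb3 (0.967) and Rps6ka5 (0.966). With 8 libraries in 4 groups and so many genes searched, values this high describe the search and carry no test. None of the 6 is on the p53 lists.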

How the data were processed

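TT-seq signal of 8 libraries was analysed. The deposited signal is reads per gene divided by a factor per library: 100% of values in each library were whole multiples of a step (tolerance 0.1 read). Per the submitters' processing notes, Trim Galore, STAR, featureCounts, DESeq2 and mm10 were used. Versions, settings and the counted feature are not given in the sources used here.

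limma 3.58.1 (R 4.3.3) was fitted to log2(value + 1) of all 8 libraries with a coefficient per group (4 residual degrees of freedom), empirical Bayes and a trend of variance with level. Tested were the 15818 genes averaging at least 10. All adjusted p-values are Benjamini-Hochberg over these genes within each of 6 comparisons, two-sided, with a threshold of 0.05, and the pseudocount of 1 understates changes of low genes. The code was tested on simulated data. A read was worth 0.836 to 1.19 normalized reads, and reads without molecular identifiers may be copies.

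The members and lists were chosen with earlier results of these data known. Named wider genes had a mean of at least 50, passed the test without group overlap and were the 12 (IAA) or 8 (mutated minus wild-type CTCF) with the largest change, of which 1 is not reported here. Others are named where a list had few calls, in an overlap, or for a wider fall below that mean (Pmaip1), after their values were seen. Positions are from GENCODE M21 (GRCm38) and sequences from RefSeq on GRCm38.p6. Alternatives were other pseudocounts (0.5, 10), no filter or one at a mean of 50, 2 rescalings, only the 2 groups compared, no trend, a replicate block, edgeR 4.0.16 on the recovered reads, and leaving out each library. They were applied to the wider genes selected by size after the data were seen, and not gene by gene to the others named.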

Additional observations from a re-analysis of the deposited data

How the results depend on the processing

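Over 18 alternatives the 5 members lower with IAA kept their calls and 0 members were called higher with IAA. On leaving out 1 library, counts of members called ranged from 5 to 6 for IAA, 6 to 10 for wild-type and 2 to 6 for mutated CTCF against the control with IAA, 7 to 8 for mutated minus wild-type CTCF, and 2 to 4 (wild-type) and 4 to 7 (mutated CTCF) against the untreated control. For the wider genes, in the same order, the ranges were 22 to 30, 20 to 30, 14 to 26, 21 to 31, 15 to 28 and 20 to 33.

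With no mean-variance trend, member counts were 3 (from 5) for mutated CTCF against the control with IAA, 5 (from 8) for mutated minus wild-type CTCF, 2 (from 4) for wild-type CTCF against the untreated control and 6 (from 9) for the wild-type line set against the control with IAA, and wider-gene counts were 9 (from 25) and 17 (from 32) in the first 2 of these. Over all genes that setting gave 3946 calls (from 5967) for IAA, 2379 (from 4991) and 3228 (from 5433) for wild-type and mutated CTCF against the control with IAA, 3263 (from 5489) between the forms, and 3869 (from 5975) for mutated CTCF against the untreated control. Without the second wild-type CTCF library the 4991 became 3274. The cause was not tested. Of the wider genes selected by size, Gpx1 (-0.46, adjusted p = 0.066) was the only one to lose its call in 360 alternative values, also with no trend. The other wider genes named were not followed gene by gene through the alternatives.

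The scale of the libraries moved the split of calls over all genes. With IAA, 3062 higher and 2905 lower became 2568 and 4100 after rescaling to the same total. By median of ratios, 3407 and 1584 (wild-type CTCF set against control with IAA) became 2547 and 2513, and 3473 and 1960 (mutated CTCF) became 2708 and 2682. Against the untreated control, 4367 and 2461 (wild-type CTCF) became 3221 and 3854 at the same total, and 3801 and 2174 (mutated CTCF) became 2593 and 3420.

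Mdm2 with IAA passed with a minimum mean of 50 (adjusted p = 0.048), median-of-ratios rescaling (0.041), the same total (0.00052) and edgeR (0.020), and the range over all alternatives was 0.00052 to 0.31. Values that turned sign were small and not called. By median of ratios, the same total and edgeR these were, for wild-type CTCF against the untreated control, Cdkn1a (-0.00584, -0.034, -0.0113) and Ccng1 (-0.0263, -0.0544, -0.0358), and for Bax with mutated CTCF -0.0245, -0.00501 and -0.0199 against the control with IAA and -0.0263, -0.0603 and -0.0307 against the untreated control. Mdm2 with mutated CTCF against the control with IAA was -0.0145 by median of ratios and -0.0132 by edgeR, and Trp53 with mutated CTCF against the untreated control was -0.0171 at the same total.

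Leaving out 1 library also turned signs. The ranges were -0.111 to 0.0138 (Trp53) and -0.0743 to 0.0664 (Bax) for IAA, and -0.0437 to 0.0971 (Bax) and -0.136 to 0.357 (Phlda3) for mutated CTCF against the control with IAA. They were -0.0861 to 0.0406 (Zmat3) and -0.0118 to 0.0734 (Sesn2) for mutated minus wild-type CTCF. Against the untreated control they were -0.0521 to 0.108 (Ccng1), -0.0796 to 0.0195 (Trp53inp1), -0.024 to 0.277 (Bbc3) and -0.0246 to 0.0197 (Phlda3) with wild-type CTCF, and -0.0469 to 0.0924 (Bax) with mutated CTCF. Leaving out the first mutated CTCF library brought Phlda3 past the threshold against the control with IAA (0.357, adjusted p = 0.049).

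The replicate numbers of the titles did not pair the libraries: the mean correlation of same-numbered deviations was 0.00373 over 6 pairs of groups (-0.0218 to 0.0282). With the replicate number as a block, 6, 9, 5, 8, 4 and 7 members and 29, 29, 28, 34, 28 and 31 wider genes were called in the 6 comparisons, in the order above. The block brought Mdm2 with IAA (adjusted p = 0.029) and Zmat3 with mutated CTCF against the untreated control (-0.107, adjusted p = 0.022) past the threshold and changed no other member's call. Depth limits Bbc3 most, with 57 to 122 reads per library.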
